A study of Mus musculus with 9 samples.

Results

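Muscle fibres lose protein when insulin is lacking. Genes of protein breakdown, FoxO factors and regulators of breakdown, growth or translation, 10 in all, were followed in tibia RNA of diabetic mice with and without liraglutide. They were chosen by symbol from the 18272 genes of the expression table, as ubiquitin ligases, FoxO factors and catabolic regulators known to respond to a lack of insulin, and all 10 were found and passed the filter on low counts. The ligases were Fbxo32, Trim63 and Fbxo30, the factors were Foxo1, Foxo3 and Foxo4, and the regulators were Mstn, Klf15, Ddit4 and Eif4ebp1. RNA-seq counted the transcripts of 9 tibiae of female C57BL/6J mice, 1 library per mouse. The 3 NGT mice (normal glucose tolerance) received the vehicle and then saline. The 3 T1D mice received streptozotocin (STZ), which destroys the beta cells that make insulin, and then saline. The 3 Lira mice received STZ and then 0.6 mg/kg/day of liraglutide, a drug that activates the receptor of glucagon-like peptide-1. The mice were bought at 10 to 11 weeks of age, acclimated for 1 week, and treated for 8 weeks from 2 weeks after STZ, whereas the label of Lira mouse 3 gives 9 weeks. No group of normal mice received liraglutide.

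Insulin acts through the kinase Akt, which phosphorylates the FoxO transcription factors and keeps them out of the nucleus. When insulin is lacking, FoxO factors enter the nucleus of the muscle fibre and switch on Fbxo32 (atrogin-1) and Trim63 (MuRF1), ubiquitin ligases that mark muscle proteins for the proteasome. Glucocorticoids and myostatin feed into the same genes, and in untreated diabetes muscle loss through this route is well known. Much of the control of FoxO is on the protein, in its phosphorylation and place in the cell, which RNA does not report.

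The bones were described as cleaned of muscle, yet the libraries carried much muscle RNA. The 22 genes of a skeletal muscle list, of which the myosin heavy chain Myh4 was the most abundant, made up 17.1 to 25.7% of the counts in NGT, 13.7 to 26.0% in T1D and 17.6 to 23.4% in Lira mice, and none was at 0. By comparison, the 12 genes of the osteoblast and osteocyte list, led by the collagen gene Col1a1, made up 0.0185 to 0.697% of the counts, with the highest share in T1D mouse 1. That library also held the highest share of the 7 macrophage genes, led by C1qa (0.0989% against 0.0028 to 0.0178% in the other libraries). The share of the 9 erythroid genes, led by Hba-a1, ran from 0.0349 to 3.27%, highest in Lira mouse 3. T1D mouse 1 and Lira mouse 3 each held over 2 times the level of every other library for 3.41% and 3.16% of the 13960 tested genes. Totals were 13086373 to 14486754 counts in NGT, 14765784 to 16528394 in T1D and 14166824 to 15527097 in Lira libraries. In bulk tissue, fewer cells of a type and less RNA per cell cannot be told apart.

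All 10 genes were well expressed, with between 156 counts (Fbxo30 at its lowest) and 36491 counts (Fbxo32 at its highest) per library. Per transcript length (FPKM), the median over the 9 libraries was highest for Trim63 at 203, ahead of Fbxo32 at 92.3 and Eif4ebp1 at 88.8. Foxo4 followed at 51.8, Klf15 at 31.4, Ddit4 at 30.9 and Mstn at 22.3 FPKM. Foxo1 at 14.1, Foxo3 at 10.8 and Fbxo30 at 4.17 FPKM were the lowest. Neighbours in this order overlapped in their ranges over the 9 libraries, except Eif4ebp1 and Foxo4, and Foxo3 and Fbxo30, whose ranges did not overlap. Among the FoxO factors Foxo4 had the highest median per length, and its lowest library (30.3 FPKM) lay above the highest of Foxo3 (18.6 FPKM). The spread between mice was widest for Trim63, whose highest library held 17.3 times the CPM (counts scaled to a common library total, with TMM) of its lowest, followed by Ddit4 with 14.9 times, Fbxo32 with 7.15 times and Foxo1 with 6.31 times. Eif4ebp1 had the narrowest spread, 2.33 times.

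**Figure D1:**
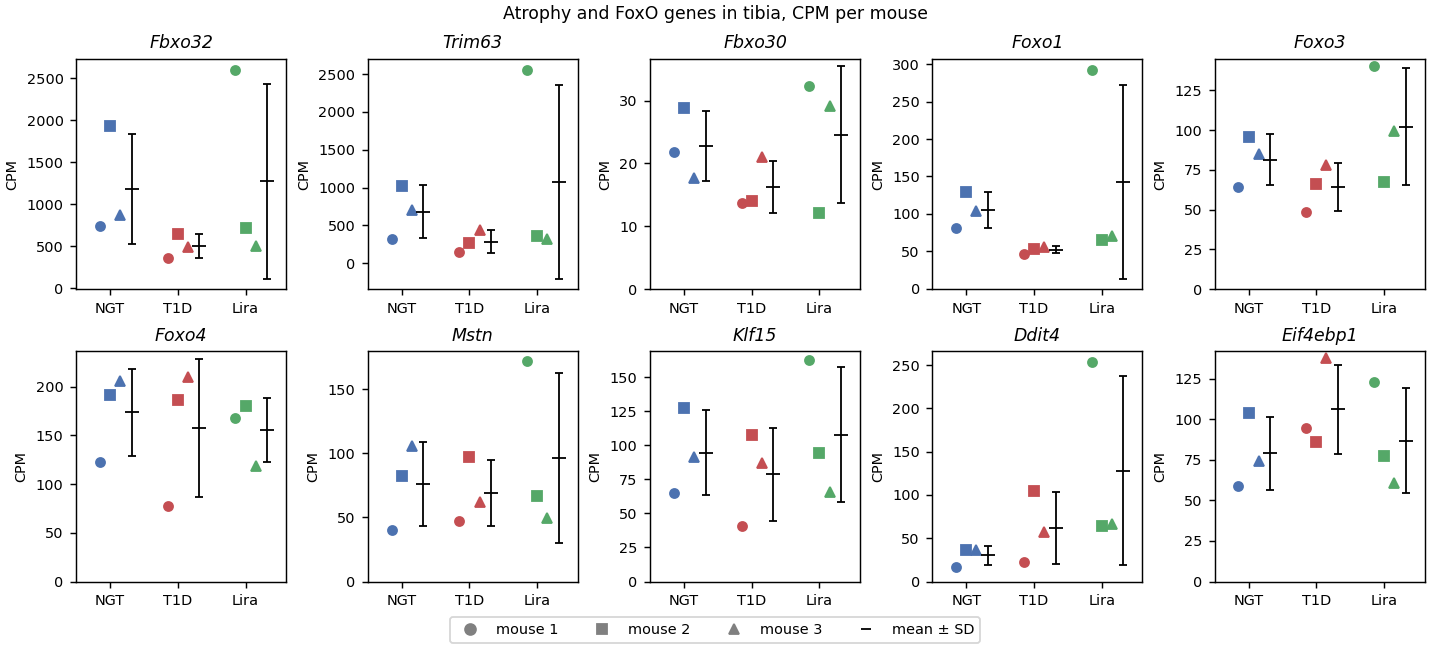
Level of each of the 10 genes in CPM (vertical axes, linear and different for each gene) in the 3 NGT, 3 T1D and 3 Lira mice, with the mean and SD of each group beside the points and the mouse number given by the marker. In Trim63, Foxo1 and Ddit4 the point of Lira mouse 1 lies at over 2 times the level of every other mouse, in Fbxo32 it is the highest with NGT mouse 2 next to it, and for Foxo1 the 3 T1D mice lie below every NGT and Lira mouse.

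The comparison of T1D with NGT mice addressed what untreated STZ diabetes does to these genes. STZ itself, high glucose, weight loss and a lack of insulin come together here and cannot be told apart. The paper reports no significant difference in serum C-peptide among its groups, and proposes that insulin might have cross-reacted in the assay. Of the 10 genes, 8 had a log2 fold change below 0, where 47.9% of all tested genes did, and the median was -0.31 against 0.02 over all tested genes. Without T1D mouse 1, the library with the most bone and macrophage RNA, 5 of the 10 were below 0, against 51.4% of the genes then tested. None passed the test (edgeR's quasi-likelihood test, Benjamini-Hochberg adjusted p under 0.05 and a fold over 2), in which 0% of all tested genes passed. With all 9 libraries in the fit, neither edgeR nor limma gave any of the 10 an unadjusted p under 0.05, whereas 3.95% of all tested genes had one in edgeR. With the NGT and T1D libraries alone in the fit, Fbxo32 and Foxo1 had one in edgeR (0.0283 and 0.00229), 2 of the 10 genes against 4.02% of the genes then tested. DESeq2 also called 0 of the 10 and gave 1, Fbxo32, an unadjusted p under 0.05, as it did for 4.99% of all genes. The Lira against T1D comparison described further on used the same T1D mice, so the directions of these comparisons are not independent.

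Fbxo32, the muscle ligase atrogin-1, stood at 739, 1929 and 874 CPM in the 3 NGT mice and at 364, 652 and 496 CPM in the 3 T1D mice. The highest T1D mouse lay below the lowest NGT mouse. The means were 1181 ± 651 and 504 ± 144 CPM (SD, n = 3 each), a log2 fold change of -1.23 ± 0.64 (SE) with an adjusted p of 0.977 in edgeR. Trim63, the ligase MuRF1 that acts on sarcomere proteins, stood at 318, 1023 and 702 CPM in NGT and at 148, 274 and 442 CPM in T1D mice. These ranges overlapped, since T1D mouse 3 exceeded NGT mouse 1. The means were 681 ± 353 and 288 ± 147 CPM (SD, n = 3 each), with a log2 fold change of -1.24 ± 0.85 (SE). Fbxo30, a ligase of the bone morphogenetic protein route in muscle also known as MUSA1, was the least expressed of the ligases, at 21.8, 28.8 and 17.7 CPM in NGT and 13.7, 14.0 and 21.0 CPM in T1D mice. Its groups overlapped, with a log2 fold change of -0.49 ± 0.37 (SE).

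Foxo1, a FoxO factor whose own transcript is raised in fasted muscle, stood at 80.7, 129 and 104 CPM in NGT and at 46.4, 53.5 and 55.7 CPM in T1D mice. The groups did not overlap, and the T1D mice were close to each other (51.9 ± 4.84 CPM, SD, n = 3) while NGT mice averaged 105 ± 24.2 CPM. The log2 fold change was -1.01 ± 0.54 (SE), with an adjusted p of 0.977 in edgeR. Foxo3, which drives autophagy genes as well as the ligases, stood at 63.9, 95.4 and 85.1 CPM against 48.3, 65.9 and 78.1 CPM, with overlapping groups and a log2 fold change of -0.35 ± 0.30 (SE). Foxo4, another FoxO factor under the control of Akt, stood at 123, 192 and 206 CPM in NGT and 77.3, 186 and 210.0 CPM in T1D mice. Apart from the low level in T1D mouse 1, the T1D mice were within the NGT range or just above it, and the log2 fold change was -0.14 ± 0.37 (SE). Fbxo32 and Foxo1 were thus the 2 of the 10 genes whose T1D mice all lay below all NGT mice, against 5.08% of all tested genes. For both, the exact permutation test over mice gave p = 0.1, the smallest that 3 against 3 allow. None of the 10 lay above all NGT mice, against 3.52% of all tested genes.

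Mstn, the secreted factor myostatin that limits muscle growth, stood at 40.4, 82.1 and 105 CPM in NGT and at 47.3, 97.4 and 62.0 CPM in T1D mice, which overlap fully (log2 fold change -0.14 ± 0.52, SE). Klf15, a factor induced by glucocorticoids that promotes amino acid breakdown, stood at 65.3, 127 and 91.6 CPM against 41.0, 108 and 86.9 CPM (log2 fold change -0.27 ± 0.44, SE). The levels of these factors thus differed by less than the spread between mice. The other regulators, Ddit4 and Eif4ebp1, had a positive fold change, and both restrain translation or growth. Ddit4 (REDD1), an inhibitor of the growth kinase complex mTORC1, stood at 17.1, 36.7 and 36.9 CPM in NGT and at 22.9, 105 and 57.4 CPM in T1D mice. T1D mice 2 and 3 exceeded all NGT mice and T1D mouse 1 did not, and the log2 fold change was 1.03 ± 0.69 (SE). Eif4ebp1, the binding protein that holds back the cap-binding factor of translation, stood at 59.0, 103 and 74.1 CPM against 94.6, 85.9 and 138 CPM, with overlapping groups and a log2 fold change of 0.43 ± 0.32 (SE).

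**Figure D2:**
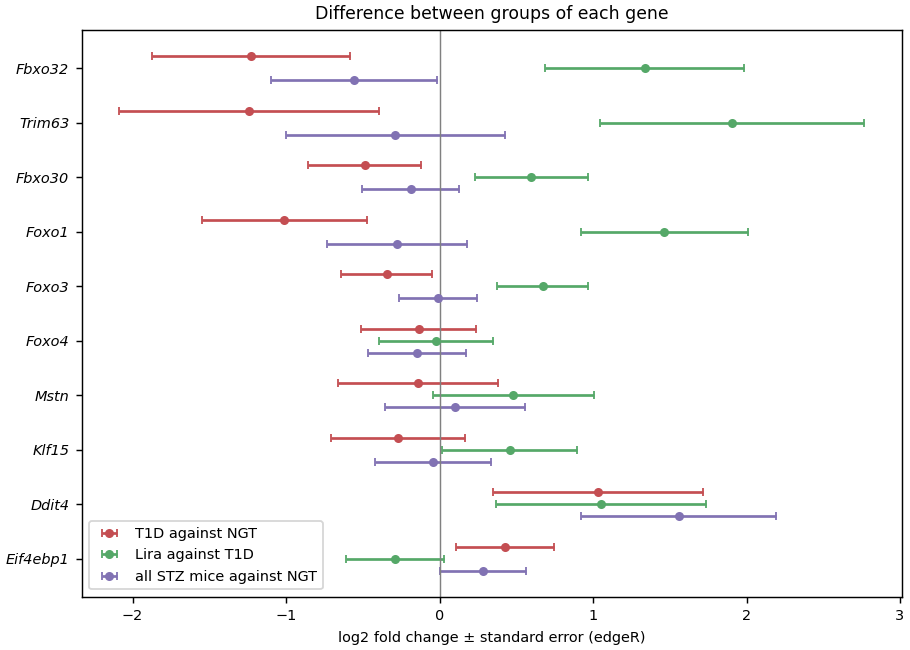
Log2 fold change of each of the 10 genes (horizontal axis, edgeR) with its standard error for T1D against NGT, Lira against T1D and all STZ mice against NGT. Fbxo32, Trim63 and Foxo1 are below 0 in T1D against NGT and above 0 in Lira against T1D by more than 1 log2 unit, whereas Ddit4 is above 0 in all 3 comparisons.

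Since same-numbered mice of the NGT and T1D groups deviated together across genes, levels were also compared within each number, called a pair here. These pairs were chosen from the same data, and the labels and methods name no pairing. Fbxo32, Trim63, Foxo1, Foxo3 and Klf15 were lower in the T1D mouse in 3 of 3 pairs, that is 5 of the 10 genes, against 19% of all tested genes. The difference of log2(CPM + 1) was -1.13 ± 0.39 for Fbxo32, -1.22 ± 0.62 for Trim63 and -0.98 ± 0.25 for Foxo1 (SD over 3 pairs). Ddit4 was higher in the T1D mouse in 3 of 3 pairs (0.84 ± 0.58), against 19.2% of all tested genes. In a fit of these groups alone that took the mouse number as a replicate block, Fbxo32, Trim63, Foxo1, Foxo3 and Ddit4 had unadjusted p-values under 0.05 in edgeR, 5 of the 10 genes against 14.2% of all genes in that fit. Their adjusted p-values were 0.229 to 0.343, so that no call was made with the block either. Without T1D mouse 1, the log2 fold changes of the fit without the block were -1.04 for Fbxo32, -0.93 for Trim63 and -0.94 for Foxo1. Without NGT mouse 2, which held the most of both ligases in its group, Fbxo32 was at -0.68 and Trim63 at -0.83, and without T1D mouse 2 Ddit4 was at 0.41.

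Since muscle RNA varied between the libraries, each of the 10 genes was also set against the muscle list of its own library. The mean log2(CPM + 1) of the 22 muscle genes was 12.02 ± 0.55 in NGT, 11.92 ± 0.38 in T1D and 12.15 ± 0.19 in Lira mice (SD, n = 3 each). T1D and NGT mice differed by -0.10 (exact permutation p = 0.8) and Lira and T1D mice by 0.23 (exact permutation p = 0.5). This mean weighs all 22 genes alike, so scarce genes count in it as much as abundant ones. It did not follow the muscle share of the counts. NGT mouse 3 held 25.7% and stood at 11.91, whereas NGT mouse 2 held 23.3% and stood at 12.62. The part of these weights in the relative levels was not tested. Within the list, Myh2, a myosin heavy chain of fast oxidative fibres, stood at 4148, 5668 and 1363 CPM in NGT, at 1407, 1702 and 1060.0 CPM in T1D and at 3921, 5826 and 2557 CPM in Lira mice. NGT mouse 3 lay within the T1D range, and all Lira mice lay above all T1D mice. Its log2 fold change was -1.42 ± 0.53 in T1D against NGT and 1.56 ± 0.54 (SE) in Lira against T1D, with unadjusted p-values of 0.0267 and 0.018 in edgeR that did not pass after adjustment. Both were over 0.05 without T1D mouse 3, the first also without NGT mouse 1 or 2 or T1D mouse 1 and the second without Lira mouse 2. Myh1, another fast myosin, differed by -1.16 ± 0.63 and 1.03 ± 0.63 (SE), and Myh4 by -0.23 ± 0.68 and 0.29 ± 0.68 (SE). These myosins are close in sequence, so their counts are uncertain, and the part of fibre types in the levels of the 10 genes was not tested. On this relative scale, which shows unequal change only, Fbxo32 stood at -2.01, -1.70 and -2.13 in NGT mice and at -3.07, -2.49 and -3.38 in T1D mice. Trim63 stood at -3.22, -2.62 and -2.45 against -4.37, -3.73 and -3.54, and Foxo1 at -5.19, -5.59 and -5.19 against -6.02, -6.07 and -6.51. All T1D mice thus lay below all NGT mice for the pair of ligases and for Foxo1, 3 of the 10 genes against 0.552% of all tested genes. Eif4ebp1 lay above, at -5.01, -5.40 and -5.22 in T1D against -5.63, -5.91 and -5.68 in NGT mice, 1 of the 10 genes against 0.537% of all tested genes. The differences were -1.03, -1.12, -0.88 and 0.53, each with an exact permutation p of 0.1, the smallest that 3 against 3 allow. Trim63 and Eif4ebp1, whose groups overlapped in CPM, were apart on this scale only. With single mice left out, 4 of the 10 genes had no overlap without T1D mouse 3 (7.68% of all tested genes) or NGT mouse 1 (14.6%). There were 5 without T1D mouse 2 (3.88%) or NGT mouse 3 (1.74%), and 6 without T1D mouse 1 (2.88%) or NGT mouse 2 (13.03%). Over the 9 mice, Pearson's r of the muscle level with the 10 genes was between 0.32 and 0.68, and 0 of the 10 passed after Benjamini-Hochberg adjustment of exact permutation p-values. The highest was that of Klf15 (r = 0.677, exact permutation p = 0.0432, adjusted 0.233, and Spearman's rho = 0.583, exact permutation p = 0.108, adjusted 0.241), and without NGT mice 1 and 2, which were farthest from the median muscle level, its r was 0.609.

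**Figure D3:**
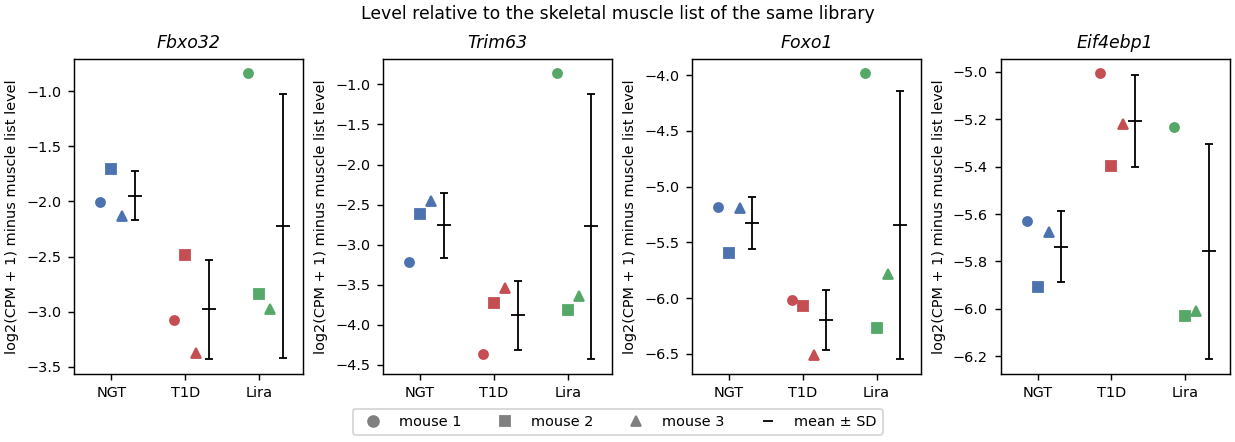
Level of Fbxo32, Trim63, Foxo1 and Eif4ebp1 relative to the skeletal muscle list, as log2(CPM + 1) minus the mean log2(CPM + 1) of the 22 muscle genes in the same library (vertical axes), for each mouse with group means and SD. The 3 T1D mice lie below the 3 NGT mice for Fbxo32, Trim63 and Foxo1 and above them for Eif4ebp1, and Lira mouse 1 lies above every other mouse for Fbxo32, Trim63 and Foxo1.

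The comparison of Lira with T1D mice addressed what liraglutide does to these genes in diabetes. Of the 10 genes, 8 had a log2 fold change above 0, against 55.3% of all tested genes, and the median was 0.64 against 0.04 over all tested genes. None passed the test in edgeR, as 0% of all tested genes did, and DESeq2 also called 0 of the 10. Foxo1 had an unadjusted p under 0.05 in edgeR, 1 of the 10 genes against 3.33% of all tested genes, while in DESeq2 Fbxo32, Trim63, Foxo1 and Foxo3 did, against 4.44%. Without Lira mouse 1 the median of the 10 genes was 0.16 and 7 were above 0, against 56.8% of the genes then tested. The number with an unadjusted p under 0.05 in edgeR was 0 without Lira mouse 1 (1.83% of the genes then tested), T1D mouse 1 (2.36%) or T1D mouse 2 (4.04%). Leaving out T1D mouse 3 gave 1 such gene (5.1%), Lira mouse 3 gave 3 (5.35%) and Lira mouse 2 gave 5 (3.12%).

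Among the ligases, Fbxo32 stood at 2604, 713 and 500.0 CPM in Lira mice 1, 2 and 3, against 364 to 652 CPM in T1D mice. Lira mouse 1 exceeded every other mouse, Lira mouse 2 was just above the T1D range and Lira mouse 3 was within it. The log2 fold change was 1.34 ± 0.65 (SE) with all mice and 0.27 without Lira mouse 1. Trim63 stood at 2560.4, 363 and 315 CPM in Lira mice against 148 to 442 CPM in T1D mice. Apart from mouse 1, the Lira mice were within the T1D range, and the log2 fold change of 1.91 ± 0.86 (SE) became 0.24 without Lira mouse 1. Fbxo30 stood at 32.4, 12.1 and 29.2 CPM, with the highest and the lowest of all 9 mice in this group, and its log2 fold change was 0.60 ± 0.37 (SE). Without Lira mouse 2, its lowest library, it was 0.92.

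Foxo1 stood at 293, 65.4 and 70.9 CPM in Lira mice, all above the T1D mice at 46.4 to 55.7 CPM. It was the 1 gene of the 10 with no overlap in this direction, against 3.74% of all tested genes, and none lay below all T1D mice, against 3.4%. Its log2 fold change was 1.46 ± 0.54 (SE) with an unadjusted p of 0.0254 and an adjusted p of 0.978 in edgeR, and 0.39 without Lira mouse 1. Lira mice 2 and 3 lay below the NGT mice, which held 80.7 to 129 CPM. Foxo3 stood at 140.0, 67.1 and 99.3 CPM against 48.3 to 78.1 CPM, with a log2 fold change of 0.67 ± 0.30 (SE) and an overlap at Lira mouse 2. Foxo4 stood at 168, 180.3 and 118 CPM in Lira mice, within the T1D range of 77.3 to 210.0 CPM (log2 fold change -0.02 ± 0.37, SE). Relative to the muscle list, Foxo1 overlapped between Lira and T1D mice, as did the other members, so that 0 of the 10 were apart in either direction (0.287% of all tested genes above and 3.98% below).

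Of the regulators, Mstn stood at 172, 66.9 and 49.4 CPM in Lira mice and Klf15 at 163, 94.6 and 66.0 CPM. In both, Lira mouse 1 exceeded every other mouse and the remaining Lira mice lay within the T1D range. Their log2 fold changes were 0.48 ± 0.52 and 0.46 ± 0.44 (SE). That of Mstn was -0.25 without Lira mouse 1. Ddit4 stood at 254, 63.9 and 66.1 CPM in Lira mice, with a log2 fold change against T1D of 1.05 ± 0.68 (SE), which was 0.07 without Lira mouse 1. Eif4ebp1 stood at 123, 77.3 and 60.4 CPM, and its log2 fold change was -0.29 ± 0.32 (SE) with overlapping groups.

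In the contrast of all 6 STZ mice with NGT mice, which used the same mice again, Ddit4 was the gene that stood out. All STZ mice but T1D mouse 1 exceeded all NGT mice, which held 17.1 to 36.9 CPM. Its log2 fold change was 1.56 ± 0.63 (SE) with an unadjusted p of 0.0374 and an adjusted p of 0.999 in edgeR. It was the 1 gene of the 10 with an unadjusted p under 0.05, against 1.8% of all tested genes, and DESeq2 also gave 1, against 2.47%. This p of Ddit4 in edgeR was over 0.05 without Lira mouse 1, when the log2 fold change was 1.07, and without T1D mouse 2 or 3 or any of the NGT mice, when it was 1.24 to 1.73. None passed the adjusted test, as 0% of all tested genes did. In the Lira mice alone, Ddit4 lay above all NGT mice, 1 of the 10 genes against 2.49% of all tested genes. Set against the muscle list, Ddit4 differed by 1.31 between STZ and NGT mice (exact permutation p = 0.0714), and 0 of the 10 genes were apart on that scale (0.0358% of all tested genes above and 0.086% below). The other 9 genes had log2 fold changes between -0.56 for Fbxo32 and 0.28 for Eif4ebp1, and the median of the 10 was -0.09, with 7 of the 10 below 0, against 45% of all tested genes. That count was 3 without NGT mouse 2 (42.1% of the genes then tested) and 4 without T1D mouse 1 (46.6%), and 5 to 8 without each of the other mice. Without Lira mouse 1, Fbxo32 at -1.09, Trim63 at -1.12 and Foxo1 at -0.82 had unadjusted p-values of 0.0208, 0.038 and 0.00193 in edgeR, 3 of the 10 genes against 1.24% of the genes then tested. The exclusion of this mouse was chosen for its levels of these genes, and their adjusted p-values did not pass.

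Lira mouse 1 was the highest of the 9 libraries for 8 of the 10 genes, all but Foxo4 and Eif4ebp1, which were highest in T1D mouse 3. Over all tested genes it was the highest library for 9.92%. For Trim63, Foxo1 and Ddit4 it exceeded every other library by over 2 times, as it did for 0.423% of all tested genes. Set against the median of the other 8 mice it held 7.52 times as much Trim63, 5.39 times as much Ddit4, 4.30 times as much Foxo1, 3.82 times as much Fbxo32 and 2.67 times as much Mstn. The level of the muscle list in this mouse, 12.18 on the log2 scale, lay within the range of 11.54 to 12.62 over all mice, and its osteoblast share of 0.0811% and erythroid share of 0.380% were also within the ranges of the other mice. T1D mouse 1, by contrast, was the lowest library for 6 of the 10 genes, as it was for 23.8% of all tested genes.

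**Figure D4:**
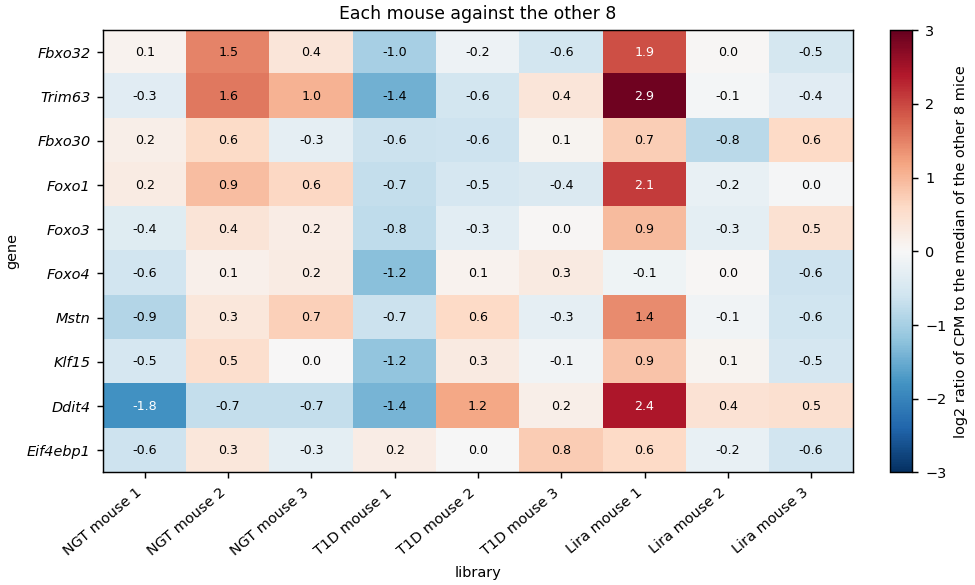
Log2 ratio of the CPM of each mouse to the median of the other 8 mice (colour and printed value) for the 10 genes (vertical) in the 9 libraries (horizontal). The column of Lira mouse 1 is positive for all genes but Foxo4, with the largest values in Trim63, Ddit4, Foxo1 and Fbxo32, while Ddit4 is negative in all 3 NGT mice.

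Trim63, Foxo1 and Ddit4, which stood out by over 2 times in that mouse, are given by the 300 bases around their start (250 before to 50 after it, RefSeq, GRCm38.p6, 5′ to 3′ on the gene's strand), because FoxO factors and the glucocorticoid receptor are both known to act on the Trim63 promoter. Of the 10 genes, 7 had such a window. The counts had been made on another build, so these positions serve only to place the sequences.
Trim63, chr4:134314870-134315169, plus strand: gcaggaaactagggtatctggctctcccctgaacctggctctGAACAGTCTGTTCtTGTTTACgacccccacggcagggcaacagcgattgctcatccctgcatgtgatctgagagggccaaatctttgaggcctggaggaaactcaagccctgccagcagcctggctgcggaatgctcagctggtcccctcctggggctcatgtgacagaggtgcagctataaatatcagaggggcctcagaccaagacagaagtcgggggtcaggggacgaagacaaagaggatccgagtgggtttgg
Foxo1, chr3:52268087-52268386, plus strand: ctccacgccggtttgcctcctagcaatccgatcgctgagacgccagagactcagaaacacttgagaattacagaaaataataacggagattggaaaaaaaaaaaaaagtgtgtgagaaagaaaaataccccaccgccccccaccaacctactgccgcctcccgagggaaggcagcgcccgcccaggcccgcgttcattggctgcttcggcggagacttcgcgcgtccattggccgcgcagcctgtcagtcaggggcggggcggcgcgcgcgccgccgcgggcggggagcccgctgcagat
Ddit4, chr10:59951721-59952020, minus strand: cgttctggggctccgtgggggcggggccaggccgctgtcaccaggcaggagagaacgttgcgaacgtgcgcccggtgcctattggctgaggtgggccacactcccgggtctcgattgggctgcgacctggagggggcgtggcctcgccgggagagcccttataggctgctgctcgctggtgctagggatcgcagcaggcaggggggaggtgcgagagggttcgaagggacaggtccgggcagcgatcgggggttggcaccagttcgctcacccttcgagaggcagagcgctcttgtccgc
Capitals mark the matches in Trim63 to the core of a glucocorticoid response element (GAACA, 3 bases of any kind and TGTTC, at -208 to -196 from the start) and, just behind it, to the FoxO core element (GTAAACA, here as its reverse complement, at -194 to -188). The stretches do not overlap. Both strands of the 7 windows were searched for these motifs, for AAAACAA, for the MEF2 element (CTA, 4 bases of any kind and TAG) and for the muscle E-box CAGCTG. Trim63 was the only one of the 7 with a match, and it also held an E-box at -72 to -67. The FoxO core was found in 3.65% of all 32851 windows, the E-box in 16.3%, AAAACAA in 9.02% and the MEF2 element in 3.69%. The glucocorticoid core was found in 19 windows, 0.0578%. It was searched for after the stricter form (AGAACA, 3 bases of any kind and TGTTCT), which 3 windows hold and none of the 7, had been tried. The windows of Foxo1 and Ddit4 held none of these motifs.

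The genes around the members were described through 8 lists. In T1D against NGT mice, no gene of any list passed the test, and the genes named for an unadjusted p under 0.05 stand against 3.95% of all tested genes with one. Of the 20 ubiquitin ligases and deubiquitinases, 3 had a log2 fold change above 0 (52.1% of all tested genes), with a median of -0.23, and Fbxo31, an F-box protein, had an unadjusted p under 0.05 in edgeR (-0.75 ± 0.31, SE). Without T1D mouse 1, 6 of the 20 were above 0 (48.6% of the genes then tested), the median was -0.09 and Fbxo31 was at -0.63 with an unadjusted p of 0.109. Ubb, which encodes ubiquitin and is among the most abundant of this list, had a log2 fold change of -0.12 ± 0.26 (SE). It holds near-identical repeats, so its count is uncertain. Of the 17 autophagy and lysosome genes 11 were above 0 (median 0.08), and Lamp2, a lysosomal membrane protein, had an unadjusted p under 0.05 (0.45 ± 0.19, SE), which was 0.122 without T1D mouse 1. Pink1 and Sqstm1, the most abundant of them, differed by -0.13 ± 0.36 and -0.04 ± 0.31 (SE). Of 14 tested FoxO target genes 6 were above 0, the median was -0.14, and none had an unadjusted p under 0.05. Without T1D mouse 1, 7 of these were above 0 and the median was -0.01. Pdk4 and Txnip, targets that restrain glucose use, differed by -0.66 ± 0.94 and 0.24 ± 0.42 (SE).

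The 28 genes of insulin, Akt and mTORC1 signaling had a median of -0.05 in T1D against NGT mice, 10 were above 0 and none had an unadjusted p under 0.05. Without T1D mouse 1 the median was 0.04, 14 of the 28 were above 0 and 1 had an unadjusted p under 0.05. Eif4g1 and Eif4ebp2, their most abundant genes, differed by -0.45 ± 0.36 and -0.03 ± 0.32 (SE). Of the 16 tested myostatin and activin genes, 10 were above 0 (median 0.11). Smad3, which carries the myostatin signal to the nucleus, stood at 80.5, 94.7 and 139 CPM in NGT and at 59.5, 47.9 and 47.2 CPM in T1D mice, which did not overlap (-1.02 ± 0.25, SE). Smad7, which inhibits that signal, stood at 6.98, 7.04 and 6.65 CPM in NGT and at 12.1, 12.3 and 8.40 CPM in T1D mice, again without overlap (0.67 ± 0.21, SE). Bmp1, a protease that activates myostatin, stood at 28.0, 17.6 and 22.2 CPM in NGT and at 60.2, 32.9 and 24.9 CPM in T1D mice (0.80 ± 0.32, SE). T1D mouse 3 lay within the NGT range, and without T1D mouse 1 the log2 fold change was 0.35. Smad3, Smad7 and Bmp1 were the 3 of the 16 genes with an unadjusted p under 0.05, against 3.95% of all tested genes, and none passed after adjustment. Groups without overlap, as in Smad3 and Smad7, were found for 5.08% of all tested genes below and 3.52% above the NGT mice. Smad4 and Ski, the most abundant, differed by -0.16 ± 0.26 and 0.29 ± 0.23 (SE).

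The 14 glucocorticoid response genes had a median of 0.25 in T1D against NGT mice, which was -0.05 without T1D mouse 1, and none had an unadjusted p under 0.05. Glul and Lpin1, the most abundant, differed by -0.12 ± 0.53 and -0.57 ± 0.42 (SE). Of the 9 genes of branched-chain amino acid and proline catabolism, 1 was above 0 and the median was -0.40. Bckdha, a subunit of the enzyme that commits branched-chain amino acids to breakdown, stood at 112, 166 and 140.1 CPM in NGT and at 79.0, 81.3 and 83.4 CPM in T1D mice (-0.78 ± 0.28, SE). Bckdha and Dbt, another subunit (-0.82 ± 0.34, SE), had unadjusted p-values under 0.05, which were 0.0511 and 0.0754 without T1D mouse 1. Dld and Bckdk, the most abundant, differed by -0.27 ± 0.26 and -0.31 ± 0.27 (SE). Of the 8 tested denervation genes, 5 were above 0 (median 0.40), and without T1D mouse 1 the median was 0.054. Hdac4, a repressor that mediates the response to nerve loss, stood at 37.4, 63.1 and 62.5 CPM in NGT and at 27.9, 36.5 and 31.1 CPM in T1D mice (-0.77 ± 0.23, SE), and Hdac5 differed by -0.04 ± 0.23 (SE). With each of the 6 NGT and T1D mice left out in turn, Smad3, Smad7 and Hdac4 kept an unadjusted p under 0.05 in this comparison, whereas Fbxo31, Lamp2, Bmp1, Bckdha and Dbt each lost it without 1 mouse or more.

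In Lira against T1D mice, no gene of the lists passed the test either, and 3.33% of all tested genes had an unadjusted p under 0.05. Fkbp5, a glucocorticoid-induced chaperone, stood at 363, 128 and 115 CPM in Lira and at 71.8, 113 and 74.4 CPM in T1D mice (1.22 ± 0.47, SE). The groups did not overlap for this gene, as for 3.74% of all tested genes in this direction, and it had an unadjusted p under 0.05 in edgeR. Igf1, the growth factor, was lower (-1.60 ± 0.66, SE), with 88.2 CPM in T1D mouse 1 and 7.42 to 22.3 CPM in the other T1D and Lira mice. Rptor, the scaffold of mTORC1, differed by 0.52 ± 0.22, Smad3 by 0.57 ± 0.25 and Bmp1 by -0.91 ± 0.32 (SE), each with an unadjusted p under 0.05. Without T1D mouse 1, Igf1 was at -0.53, Rptor at 0.38 and Bmp1 at -0.47, and without Lira mouse 1 Fkbp5 was at 0.49, all with unadjusted p-values over 0.05. Smad3 also lost its p, without Lira mouse 2 or 3 or T1D mouse 2 or 3. The median of the glucocorticoid list was 0.49 (13 of 14 above 0) and that of the FoxO targets 0.25 (12 of 14), and without Lira mouse 1 these were -0.06 and -0.09. That of amino acid catabolism was 0.26 (8 of 9 above 0) and became 0.28 without Lira mouse 1 and 0.12 (7 of 9) without T1D mouse 1. That of the ubiquitin list was 0.24 (16 of 20) and became 0.10 without Lira mouse 1 and 0.13 without T1D mouse 1. The medians of the other lists were 0.03 for denervation (-0.35 without Lira mouse 1), 0.02 for autophagy (-0.09), 0.02 for insulin, Akt and mTORC1 (-0.03) and -0.08 for myostatin and activin (-0.08). Over all tested genes the median was 0.04, with 0.05 without Lira mouse 1 and 0.07 without T1D mouse 1. In all STZ against NGT mice, Cebpd and Errfi1 of the glucocorticoid list (1.27 ± 0.41 and 0.86 ± 0.34, SE), Smad7 (0.57 ± 0.18), Smad3 (-0.74 ± 0.21) and Hdac4 (-0.65 ± 0.19) had unadjusted p-values under 0.05, as did 1.8% of all tested genes, and none passed after adjustment. Those of Cebpd and Errfi1 were over 0.05 without NGT mouse 1, and that of Errfi1 also without NGT mouse 3 or T1D mouse 2 or 3.

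Lira mouse 1 was the highest library for 11 of the 14 glucocorticoid response genes and for 8 of the 14 FoxO target genes, against 9.92% of all tested genes. It was the highest for 7 of 20 ubiquitin genes, 6 of 17 autophagy genes, 7 of 28 insulin, Akt and mTORC1 genes, 3 of 16 myostatin and activin genes, 2 of 8 denervation genes, 1 of 9 amino acid catabolism genes and 1 of 22 muscle genes. Sesn1, a FoxO target that restrains mTORC1, stood at 342 CPM in this mouse and at 53.4 to 119 CPM in the others. Cdkn1a, an inhibitor of the cell cycle, stood at 685 CPM against 87.8 to 298 CPM, and Gabarapl1, a component of autophagosomes, at 236 CPM against 43.0 to 100.5 CPM. In the glucocorticoid list, Glul stood at 1752 CPM against 408 to 788 CPM, Cebpd at 248 CPM against 33.3 to 87.4 CPM and the metallothionein Mt2, whose reads can match Mt1, at 307 CPM against 33.9 to 124 CPM. Inhbb, a subunit of activin B, stood at 11.3 CPM against 1.25 to 5.60 CPM. These 7 genes are named because their level there was over 2 times that of every other library, which was chosen after their values were seen. The part of the glucocorticoid response in the levels of the 10 genes was not tested.

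**Figure D5:**
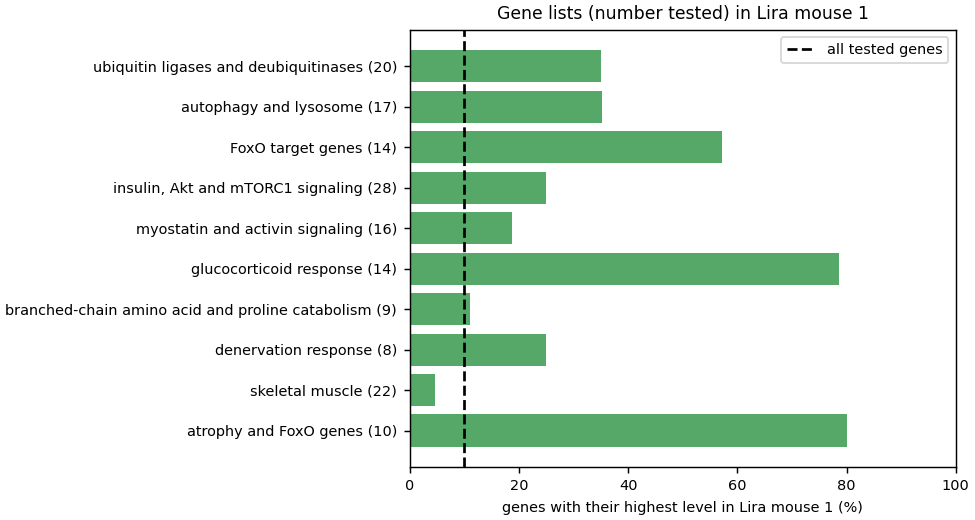
Percentage of the tested genes of the 8 pathway lists, the skeletal muscle list and the 10 atrophy and FoxO genes that had their highest level of the 9 libraries in Lira mouse 1 (horizontal axis), with the number tested in brackets and the share over all 13960 tested genes (9.92%) as a dashed line. The 10 atrophy and FoxO genes (80%) and the glucocorticoid response list (78.6%) have the longest bars, and the skeletal muscle list (4.55%) has the shortest of those plotted.

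The members also differed in how closely they followed each other over the 9 mice, given here as Pearson's r of log2(CPM + 1), a description over libraries that share depth and muscle content. Fbxo32, Trim63 and Foxo1 ran together, with r of 0.930 for the ligases, 0.932 for Fbxo32 with Foxo1 and 0.948 for Trim63 with Foxo1, and 0.863, 0.889 and 0.879 without Lira mouse 1. Foxo4 ran with Klf15 (0.792, and 0.913 without that mouse). Ddit4 followed Fbxo32 at 0.468, and at -0.07 without Lira mouse 1. Eif4ebp1 had no r above 0.49 with any other member.

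Among 10413 genes of at least 5 CPM, those most like each member over the 9 libraries were named by the 3 highest r. Fbxo32 was closest to Ulk1, the kinase that starts autophagy (0.968, and 0.966 without Lira mouse 1), Elk1 (0.966) and Wdr75 (0.955). Trim63 was closest to Ercc5 (0.990), Tbc1d17 (0.968) and Elk1 (0.958). Foxo1 was closest to Prodh, the enzyme that starts proline breakdown (0.950, and 0.850 without Lira mouse 1), to Trim63 itself and to Fkbp5 (0.945, and 0.853 without that mouse). The nearest to Mstn were Ubb (0.954), Zfand5 (0.950) and Cyp27a1 (0.950), and to Klf15 Clpx (0.995), Mtmr1 (0.988) and Gpr157 (0.986). For Foxo4 they were Qser1 (0.990), Asrgl1 (0.990) and Asnsd1 (0.987), for Foxo3 Mbd1 (0.966), Kdm4c (0.943) and Cmtr2 (0.941), and for Fbxo30 Rcl1 (0.965), Tubgcp3 (0.923) and Fcho2 (0.920). Ddit4 was closest to Whamm (0.934), Orc5 (0.923) and Stc2 (0.920), and Eif4ebp1 to Rab11b (0.921), Adamts1 (0.916) and Bnip3 (0.898). Without Lira mouse 1, the r of these named genes ran from 0.843 for Ddit4 with Stc2 to 0.993 for Klf15 with Clpx.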

How the data were processed

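RNA from 1 tibia of each of 9 mice was sequenced, 1 library per mouse. After TRIzol extraction the mRNA was enriched with oligo(dT), and the clean reads were aligned to the mouse genome, mm9 per the submitters' processing notes. The aligner, counter, annotation and strand setting are not given in the sources used here, so reads of overlapping antisense genes cannot be told apart. The authors deposited expected counts per gene, not normalized, of which 30.2% were not whole (tolerance 1e-06), and FPKM values, scaled by the authors for length and library total. All 9 libraries were mapped by their labels, 0 sample columns were left over, and no libraries were duplicates. Replicates are separate mice.

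The filter kept 13960 of 18272 genes, those whose rounded expected count reached 10 in 3 or more libraries. R 4.3.3 with edgeR 4.0.16 (TMM, glmQLFit and glmQLFTest without the robust option, 3 group means over all 9 libraries, contrasts T1D against NGT, Lira against T1D and the mean of both STZ groups against NGT) gave log2 fold changes, and p-values were adjusted by Benjamini-Hochberg over all tested genes. A call needed an adjusted p under 0.05 and a fold over 2, the thresholds of the study's methods. At these thresholds the paper, whose methods name an analysis of variance, reports many changed genes in T1D against NGT and Lira against T1D. The edgeR fit used here, a different test, called 0% of all tested genes in both. The biological coefficient of variation was 0.433. Standard errors were derived from the F statistic. CPM were scaled by TMM, and a pseudocount of 1 was added on the log2 scale. Single values were compared by two-sided exact permutation over mice. On simulated data for T1D against NGT with 200 of 13960 genes changed, 102 were recovered at 4-fold with 5 false calls and 177 at 16-fold with 4 false calls. The simulated counts were drawn independently for each gene and library, without the shared shifts of tissue content between the real libraries. The recovery therefore need not hold for the real data. Depth, 13086373 to 16528394 counts, left no member near the counting floor, so that the spread between mice sets the precision.

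Same-numbered NGT and T1D mice deviated together from their group means (r = 0.583, 0.647 and 0.283 over genes, each over 0.1), and levels were also compared within these numbers. The r are not independent, since the deviations within a group cancel out. The highest r between groups, 0.780, was that of mice with different numbers (NGT mouse 1 with Lira mouse 3). Same-numbered NGT and Lira mice had r of -0.173, 0.727 and 0.0125. Whether the numbers pair mice or reflect shared tissue content was not tested. The labels and methods name no pairing, and the block stayed an alternative. Alternatives were DESeq2 1.42.0, limma 3.58.1 on log2(FPKM + 1), library size scaling, no low-count filter, no fold threshold, the groups compared alone, the replicate block, the muscle level as covariate and each mouse left out in turn. Chosen after the data had been seen were the block with the groups compared alone, edgeR's robust option, muscle-scaled values from FPKM and without each mouse, and list medians without Lira mouse 1 or T1D mouse 1. The members and lists were chosen with earlier results of these data known.

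Named genes are the 10 members, the 2 most abundant tested genes of each pathway list, genes of a list with an unadjusted p under 0.05 where the list had at most 3, the most abundant gene of each cell type list used, and the 3 genes most correlated with each member (both at 5 CPM or more). Of the genes this rule names, 1 is not reported here. Symbols of 17778 genes (97.3%) and of 10 of 10 members matched RefSeq. Promoter windows are from RefSeq GRCm38.p6. The adipocyte, chondrocyte, osteoclast, neutrophil, B cell and endothelial lists were summed as well: over the 9 libraries their shares were 0.0543 to 0.280%, 0.000268 to 0.00834%, 0.000711 to 0.0440%, 0.000345 to 0.571%, 0.00153 to 0.0236% and 0.0234 to 0.0494%.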

Additional observations from a re-analysis of the deposited data

Results flagged for a closer look

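Among the 6 mice that received STZ, that is the T1D and Lira groups pooled, Lira mouse 1 lay far from the other 5 for 4 of the 10 genes. On the linear CPM scale, its gap to the nearest mouse took up 0.901 of the whole range for Foxo1, 0.878 for Trim63, 0.844 for Fbxo32 and 0.645 for Ddit4, each above Dixon's limit for 6 samples at the 95% level, which Lira mouse 1 passed as the highest mouse for 1.24% of all tested genes. On the log2(CPM + 1) scale, added after seeing the data, the gap was 0.772 for Foxo1 and 0.659 for Fbxo32, still above that limit (0.509% of all tested genes), but 0.617 for Trim63 and 0.371 for Ddit4, below it. Chance gives such a gap in about 1 of 20 groups, and the 10 genes are not independent of each other. The 6 mice pool treated and untreated animals, and groups of 3 are too small for this rule.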

How the results depend on the processing

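Under DESeq2, limma on FPKM, library size scaling, no low-count filter, no fold threshold, the compared groups alone, the muscle covariate, the robust option, the replicate block and every left-out mouse of the groups compared, 0 of the 10 genes were called in any comparison. Their adjusted p-values over these alternatives were 0.229 to 1.0 in T1D against NGT, 0.745 to 1.0 in Lira against T1D and 0.661 to 1.0 in all STZ against NGT mice. With the replicate block over all 9 libraries, 0 of the 10 had an unadjusted p under 0.05 in any comparison, so Foxo1 and Ddit4 lost theirs, and the block changed no call. Same-numbered T1D and Lira mice correlated at -0.244, 0.615 and 0.271, so these numbers were not taken as pairs.

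Foxo4 in Lira against T1D turned from -0.02 to 0.10 with the replicate block and 0.074 with the block and those groups alone. In all STZ against NGT mice, Foxo3 turned from -0.01 to 0.036 with library size scaling, 0.029 with the STZ mice pooled as 1 group and 0.0044 with limma, and Trim63 from -0.29 to 0.0054 with the STZ mice pooled. Leaving out each mouse gave -0.40 to 0.19 for Foxo4, -0.47 to 0.17 for Mstn and -0.57 to 0.040 for Klf15 in T1D against NGT, and -0.35 to 0.24 for Foxo4 and -0.25 to 0.81 for Mstn in Lira against T1D. In all STZ against NGT mice it gave -1.12 to 0.13 for Trim63, -0.34 to 0.014 for Fbxo30, -0.16 to 0.12 for Foxo3, -0.34 to 0.015 for Foxo4, -0.26 to 0.41 for Mstn and -0.25 to 0.23 for Klf15. The muscle list level moved between -0.34 and 0.20 in T1D against NGT and between -0.23 and 0.31 in all STZ against NGT mice. The causes were not tested. Fbxo32, Trim63 and Foxo1 kept a negative fold change in T1D against NGT and a positive one in Lira against T1D under every alternative run.

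Genes without overlap relative to the muscle list numbered 0 to 3 in Lira against T1D. There were 3 without Lira mouse 2 (7.36% of all tested genes) or T1D mouse 2 (7.77%), 1 without Lira mouse 1 (6.6%) or T1D mouse 1 (7.35%), and 0 without Lira mouse 3 (21.3%) or T1D mouse 3 (37.1%). They numbered 0 to 3 in all STZ against NGT, with 3 without Lira mouse 1 (0.279%), 1 without T1D mouse 1 (0.222%) or NGT mouse 3 (0.215%), and 0 without any other mouse (0.150 to 9.58%).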
